A study of Mus musculus with 8 samples.

Results

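Granzyme C high cells were OT-I T cells from KPC_OVA tumours that carried exactly 1 guide, had at most 10% of their gene UMIs on mitochondrial genes and held at least 3 UMIs of Gzmc (ENSMUSG00000079186), the gene of the serine protease granzyme C. The members were thus selected on their measured Gzmc UMIs. Of 23337 single-guide cells, 764 met this rule, 3.27% of all. They were compared within each library with the 21252 cells in which no Gzmc UMI was counted, and 1321 cells with 1 or 2 Gzmc UMIs were left out of that comparison. The cells came from a CROP-seq experiment, in which the transcripts and the CRISPR guide of single cells are read together, and a UMI is a tag that counts 1 captured transcript. OT-I T cells, CD8+ T cells with a transgenic receptor for an ovalbumin peptide, were taken from Cas9 knock-in mice, given a lentiviral library of guides against metabolic genes together with the CD90.1 surface marker, and infused through the tail vein into mice with orthotopic KPC_OVA tumours, a pancreatic ductal adenocarcinoma line that expresses ovalbumin. All recipients shared this set-up, received anti-PD-1 or a control IgG from the day of transfer, and gave CD90.1+ cells sorted from the primary tumour 7 days later. There were 3 libraries with anti-PD-1 and 1 with IgG. The labels give neither the number of mice pooled in a library nor the age of the mice.

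Granzymes are serine proteases that cytotoxic lymphocytes keep in granules and deliver into target cells with perforin, which opens the membrane. Granzyme B is the best known of them and triggers cell death, and granzyme A is a tryptase encoded on another chromosome. Granzymes C, D, E, F and G are rodent relatives of granzyme B, encoded next to it and known from strongly stimulated or interleukin-2-treated killer cells.

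A Cd3 chain was counted in 763 of the 764 cells, a Cd8 chain in 756 and both in 755, which is 98.8%. The other genes named with these cells, Prf1, Gzma and Spp1, were higher in them in all 4 libraries, with values given below. These genes were named with earlier results of these data known, so their rise is a description and no test of the label. The label was kept. The libraries had 142945121 to 155974184 gene UMIs and differed in depth per cell. Gzmc high cells had a median of 25160, 24410 and 16983 UMIs in replicates 1, 2 and 3 under anti-PD-1 and 7845 under IgG, against 16461, 15995, 11548 and 6192 in Gzmc 0 cells, so they were deeper in every library. The comparison was therefore repeated with as many Gzmc 0 cells drawn from the same bins of total UMIs, named equal depth below. Their medians were 26482, 22692, 16717 and 7757 UMIs, close to but not the same as those of the Gzmc high cells, and 8739 of 11811 genes had enough UMIs to be tested there. Anti-PD-1 replicates 1 and 2 resembled each other and stood apart from replicate 3 and IgG in depth and in the levels of many genes, and the titles of replicates 1 and 2 share a name. No label names a batch, and the labels do not say whether replicates 1 and 2 came from separate mice. Replicate 3 is therefore set beside IgG wherever treatments are compared, and the gene tests take the library as their unit. Libraries shared 3 to 20 cell barcodes in pairs, of which 0 were among the Gzmc high cells. No doublet caller was run, and barcodes with more than 1 guide were left out.

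The genes of granzymes C to G lie on the minus strand of chromosome 14 within a cluster of granule protease genes, with Gzmc at 14:56231441-56234656, Gzmf 23.2 kb, Gzmg 75.1 kb, Gzmd 102 kb and Gzme 114 kb from it on one side, and Gzmb 27.6 kb on the other (GRCm38, GENCODE M21). The stretches below are the proximal promoters of these 5 genes, printed because Gzmd, Gzme, Gzmf and Gzmg were higher in the cells chosen on Gzmc. They are taken from RefSeq sequence of GRCm38.p6, read 5′ to 3′ on the minus strand, and end upstream of the annotated RefSeq transcript start. The capitals mark the 8 bases aligned with the octamer TGACGTCA, the palindromic cAMP response element, which was looked for after the sequences had been seen.
Gzmc, chr14:56234665-56234774: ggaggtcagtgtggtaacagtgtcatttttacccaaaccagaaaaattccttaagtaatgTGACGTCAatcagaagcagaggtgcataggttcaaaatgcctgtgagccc
Gzmd, chr14:56132605-56132714: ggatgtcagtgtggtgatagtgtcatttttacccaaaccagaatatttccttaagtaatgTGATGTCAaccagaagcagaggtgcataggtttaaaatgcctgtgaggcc
Gzme, chr14:56120638-56120747: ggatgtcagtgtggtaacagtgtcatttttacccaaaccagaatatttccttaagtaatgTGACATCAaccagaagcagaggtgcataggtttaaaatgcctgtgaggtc
Gzmf, chr14:56211440-56211549: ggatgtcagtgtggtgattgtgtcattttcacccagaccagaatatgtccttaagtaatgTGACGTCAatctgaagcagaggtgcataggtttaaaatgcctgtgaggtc
Gzmg, chr14:56159607-56159716: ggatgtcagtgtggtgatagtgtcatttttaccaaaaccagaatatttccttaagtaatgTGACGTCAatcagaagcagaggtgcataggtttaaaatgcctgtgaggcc

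Over the 250 bases upstream of the start, the promoters of Gzmd, Gzme, Gzmf and Gzmg were identical to that of Gzmc at 83.6%, 84.4%, 79.2% and 80.8% of the bases. The octamer was intact in Gzmc, Gzmf and Gzmg, with its first base at -57, -82 and -77 from the start. Gzmd differed from it by C4T and Gzme by G5A, with positions counted from 1 at the 5′ end of the octamer. Of each of the 32851 promoter windows of the table, which are 300 bases long, the 250 bases upstream of the start were searched on both strands. The octamer occurred in 508 windows, or 1.55%. The longest run shared by all 5 windows, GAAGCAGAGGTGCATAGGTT, occurred in these 5 windows and in no other, 0.0152% of all. Of the other motifs searched, the RUNX motif TGTGGTT was present in all 5 and in the windows of Gzmb, Gzma and Spp1 (4.40% of all windows), the AP-1 motif TGANTCA was present in Gzmb alone among these genes (6.75%), and the STAT motif TTCNNNGAA (7.02%) and the T-box motif AGGTGTNA (2.68%) were in none of them. No match of these motifs overlapped the octamer. A match is a description of the letters only.

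Gzmc itself chose the cells, so its values are a description. The median cell held 10 Gzmc UMIs, with quartiles of 5 and 30 and a highest value of 777. Per library the median was 7, 10 and 12 UMIs in replicates 1, 2 and 3 under anti-PD-1 and 10 under IgG. The level was very uneven, since the 76 cells with the most Gzmc held 60.8% of the Gzmc UMIs of these cells and 77 cells held 100 or more. The 764 cells held 95% of the 31375 Gzmc UMIs in all single-guide cells. At the border of the rule, the 111 cells with 3 UMIs just inside had a mean over the 4 libraries of 2766 CPM for Gzmb, 4055 CPM for Gzma, 421 CPM for Spp1 and 89.5 CPM for Tox, and the 253 cells with 2 UMIs just outside had 3362, 2992, 222 and 68.9 CPM. CPM is the number of UMIs of a gene per 1000000 gene UMIs of the summed cells, with Gzmc left out of the total. Of these 4 genes, Gzmb and Tox lay nearer to the Gzmc 0 cells just inside the border than just outside it.

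Among 11811 genes tested by edgeR on the sums of each library, 703 were higher in Gzmc high cells, 5.95% of those tested, and 833 were lower, 7.05%, at an adjusted p under 0.05. The median log2 difference of all genes was -0.02. A gene that reached the limit of the filter on low counts in all 4 libraries of the group where it was higher, but not in all 4 of the other, was taken to have passed through 1 group, and 941 genes were of this kind (limit 0.397 CPM). Such members are given by their values, without a test, and are left out of the counts and medians of the lists. They were identified on the sums of the main comparison and not again at equal depth, where fewer Gzmc 0 cells were summed. Counts at equal depth can therefore include genes that were too low in 1 group there. Of the other 10870 genes, 6.12% were higher and 7.06% lower, and the list counts are to be read against these shares. At equal depth, 514 of 8739 genes were higher (5.88%) and 430 lower (4.92%). The 1536 calls became 943 without replicate 3 and 1008 without IgG, the 2 libraries that held most of the cells. Throughout, the 4 levels of a gene are given in the order of anti-PD-1 replicates 1, 2 and 3 and then IgG. Log2 differences are Gzmc high minus Gzmc 0 with their standard error, and adjusted p-values are those of edgeR. The spread that edgeR uses for a gene is drawn partly from the other genes. A standard error or p-value can thus understate the spread of that gene between libraries.

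The granzyme genes between Gzmc and Mcpt8, other than Gzmn, were far higher in Gzmc high cells. Gzmf, the nearest of them on its side, was at 1355, 2687, 2465 and 2084 CPM in Gzmc high cells and at 2.92, 4.90, 5.50 and 3.47 CPM in Gzmc 0 cells. The groups did not overlap, and the level was 449- to 601-fold higher within the 4 libraries, a log2 difference of 9.03 ± 0.06 with an adjusted p of 2.42e-49. Gzmd was at 709, 1530, 934 and 813 CPM against 0.443, 0.761, 1.88 and 0.913 CPM, a difference of 9.81 ± 0.10 (adjusted p = 3.88e-42). At equal depth the difference was 10.27 for Gzmf and 7.69 for Gzmd, and the 10 cells with the most UMIs held 46.5% of the Gzmf UMIs and 43.7% of the Gzmd UMIs of the Gzmc high cells. Gzme was at 469, 602, 349 and 394 CPM against 0.133, 0.806, 0.652 and 0.564 CPM. Neither gene overlapped between the groups, and both were close to absent from Gzmc 0 cells. Gzmg was at 42.2, 385, 592 and 235 CPM against 0.0443, 0.604, 0.293 and 0.0537 CPM, the latter resting on 2, 27, 22 and 4 UMIs. Gzme and Gzmg did not reach the limit in all Gzmc 0 libraries, so that their values are given without a test. For Gzmg, the lowest Gzmc high library, replicate 1, still stood above every Gzmc 0 library, but 57 cells held all its UMIs in Gzmc high cells and the highest single cell held 34.8% of them.

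Other granule protease genes beside the cluster were low. Mcpt8, a granule protease of basophils that is encoded 149 kb from Gzmc beyond Gzme, had 10, 12, 33 and 13 UMIs in the Gzmc high cells of the 4 libraries and 0, 0, 2 and 2 UMIs in the far more numerous Gzmc 0 cells. It too was below the limit in Gzmc 0 cells and is given without a test. Ctsg, the gene of the neutrophil protease cathepsin G, had 1, 2, 9 and 0 UMIs against 0 in every library and was too low to test. The mast cell protease genes further along, Cma1, Cma2, Mcpt1, Mcpt2, Mcpt4 and Mcpt9, were too low to test, as was Gzmn within the cluster. Sdr39u1, the first gene past the cluster on that side, was at 17.7, 12.3, 21.7 and 18.1 CPM against 18.5, 19.0, 18.6 and 18.1 CPM. The values overlapped, with a difference of 0.07 ± 0.12 (adjusted p = 0.813).

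**Figure D1:**
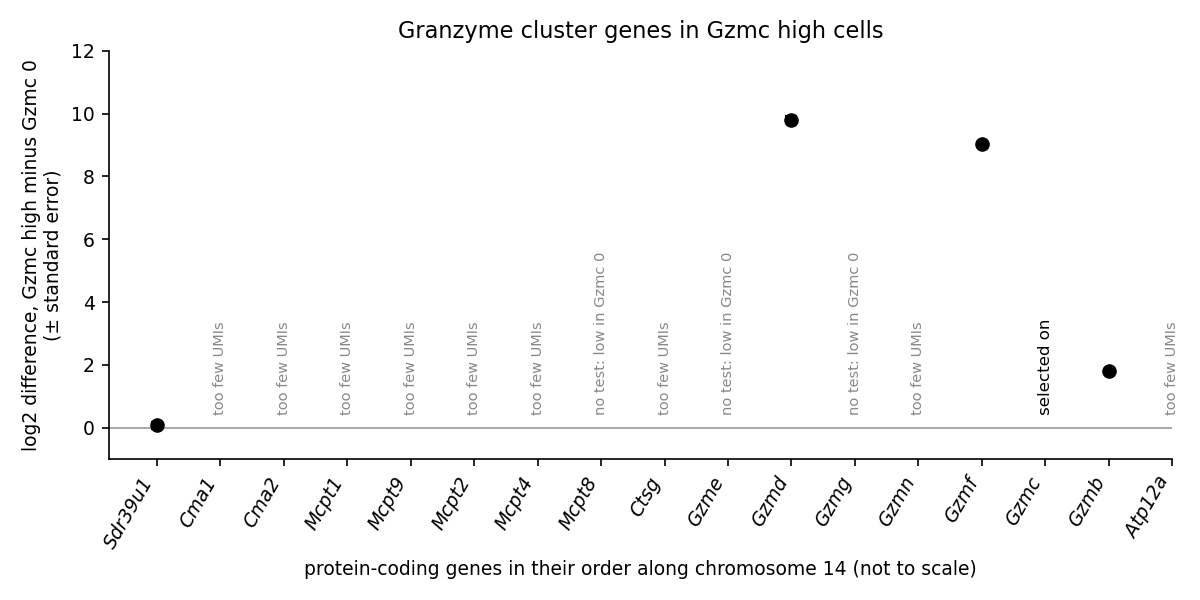
Log2 difference between Gzmc high and Gzmc 0 cells with its standard error (y axis) for the protein-coding genes around Gzmc in their order along chromosome 14 (x axis, not to scale). Gzmf and Gzmd lie at 9.03 and 9.81, Gzmb at 1.81 and Sdr39u1 beside the cluster at 0.07, and no value is drawn for Gzmc, for genes with too few UMIs and for Gzme, Gzmg and Mcpt8, which were too low in Gzmc 0 cells for a test.

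The 3′ ends that the method captures shared few exact pieces of 90 bases among these related genes. Their similarity short of exact matches was not measured. Of 411 pieces of 90 bases in the last 500 bases of the Gzmc transcript, 0 occurred in Gzmd, Gzme, Gzmf, Gzmg, Gzmb, Gzmn or Mcpt8, and Gzmd and Gzme shared 7 of 411 pieces with each other (1.70%). The counts of the cluster genes were not uniform among the cells, and a count of 0 does not show that a gene was not expressed. A UMI of Gzmd, Gzme, Gzmf or Gzmg was counted in 44.4% of Gzmc high cells and in 3.62% of Gzmc 0 cells, whereas 55.6% of Gzmc high cells had none of the 4. Of the 764 cells, 22.4% had 1 of the 4 genes, 8.51% had 2, 8.25% had 3 and 5.24% had all 4. Conversely, the Gzmc high cells held 95.7% of the Gzmd UMIs, 93.4% of the Gzme UMIs, 92.2% of the Gzmf UMIs and 98.4% of the Gzmg UMIs of the Gzmc high, intermediate and Gzmc 0 cells together. Gzmf was the member seen most often without Gzmc. Of 293 cells with at least 3 Gzmf UMIs, 182 were Gzmc high, 47 had 1 or 2 Gzmc UMIs and 64 had none, against 141, 9 and 7 of 157 cells for Gzmd.

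After each cell was thinned to 3000 gene UMIs, which left out 14 Gzmc high and 838 Gzmc 0 cells that were shallower, a Gzmd UMI was found in 24.3%, 25%, 18.8% and 19.0% of the Gzmc high cells of the 4 libraries and in 0.0834%, 0.204%, 0.302% and 0.221% of the Gzmc 0 cells. Without thinning the shares were 29.7%, 26.8%, 23.8% and 21.9% against 0.705%, 1.06%, 1.39% and 0.432%. Gzmd was thus found more often in Gzmc high cells at a fixed depth too.

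Of the list of 10 granzyme and perforin genes other than Gzmc, 6 could be tested in both groups, of which 5 were higher and 1 lower, with a median log2 difference of 2.20, and Gzme, Gzmg and Gzmm could not. Gzmb, the gene of granzyme B, was at 4223, 4436, 5342 and 4597 CPM in Gzmc high cells and 1353, 1542, 1686 and 951 CPM in Gzmc 0 cells. It rose 2.88- to 4.83-fold without overlap, a difference of 1.81 ± 0.06 (adjusted p = 8.30e-24). Gzma was at 5404, 3063, 8488 and 6382 CPM against 727, 682, 1634 and 940 CPM, a difference of 2.58 ± 0.06 (adjusted p = 4.17e-29). Its gene lies outside the cluster, and its levels did not overlap either. Prf1, the gene of perforin, was at 746, 817, 1260 and 1137 CPM against 525, 528, 732 and 430 CPM. Its groups were nearest to each other, with the lowest Gzmc high library just above the highest Gzmc 0 library, and differed by 0.90 ± 0.07 (adjusted p = 8.11e-13).

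Gzmk and Gzmm were not higher. Gzmk, the granzyme of early memory-like effector cells, was at 145, 118, 108 and 65.3 CPM against 133, 145, 160 and 103 CPM, a difference of -0.40 ± 0.07 (adjusted p = 4.41e-05). It was higher in Gzmc high cells in replicate 1 and lower in the other libraries, and at equal depth the adjusted p was 0.248. Gzmm was at 2.94, 0, 1.22 and 2.34 CPM against 4.63, 3.98, 3.18 and 5.52 CPM, lower in all 4 libraries. Its level rests on 18 UMIs in Gzmc high cells, and it is given without a test.

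Of 14 genes of granule storage, release and granzyme control, 4 were higher and 2 lower, with a median of 0.09, against 6.12% higher and 7.06% lower of all genes tested in both groups. At equal depth 4 were higher and 0 lower. The rises were Serpinb6b at 0.62 ± 0.05 and Serpinb9 at 0.57 ± 0.05, both serpin protease inhibitors and the latter the inhibitor of granzyme B, Ctsd (cathepsin D) at 0.53 ± 0.04 and Cst7 (cystatin F) at 0.16 ± 0.05, without a rise in replicate 3. Nkg7, a granule membrane protein, fell by 0.27 on the log2 scale and Srgn, the proteoglycan core of the granule, by 0.13, and at equal depth neither passed the threshold (adjusted p of 0.122 and 0.305).

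Outside the proteases, the largest rises among genes with a mean log2 CPM of at least 4 included those of Fcer1g, Spp1 and the Ifitm genes. Fcer1g, the gene of the signalling chain that Fc and natural killer receptors share, was at 183, 186, 377 and 293 CPM in Gzmc high cells and at 2.83, 1.66, 28.2 and 27.6 CPM in Gzmc 0 cells. The groups did not overlap and differed by 4.23 ± 0.21 (adjusted p = 1.43e-18). Within the 4 libraries the log2 differences were 5.58, 6.14, 3.69 and 3.36, a wider spread than this standard error. Tyrobp, the gene of the related adaptor DAP12, had a lower mean level and was at 33.4, 34.2, 37.2 and 30.4 CPM against 0.620, 0.671, 2.66 and 2.65 CPM, a difference of 4.25 ± 0.23 (adjusted p = 7.11e-18). Tyrobp nevertheless came from 81 of the 764 cells and Fcer1g from 331. Of 887 cells with at least 3 Fcer1g UMIs, 251 were Gzmc high, which is 28.3% of them and 32.9% of the Gzmc high cells, so that the sets overlapped in part.

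Spp1, the gene of the secreted protein osteopontin, was at 502, 443, 1331 and 1181 CPM against 83.1, 66.5, 84.9 and 80.8 CPM. The groups did not overlap, and the difference was 3.48 ± 0.12 (adjusted p = 5.31e-24) and 4.10 at equal depth, with 444 cells holding a UMI. The 3 Ifitm genes, which encode small interferon-inducible membrane proteins, rose together by 3.12 ± 0.06 for Ifitm1, 3.0 ± 0.06 for Ifitm2 and 3.03 ± 0.07 for Ifitm3. Ifitm1 was at 1105, 1122, 1951 and 1999 CPM against 121, 125, 300 and 193 CPM (adjusted p = 3.87e-33), again without overlap. The metallothionein genes Mt1 and Mt2, whose products bind metal ions, rose by 1.11 ± 0.06 and 1.42 ± 0.10, and Mt3 was at 0.27 ± 0.10 (adjusted p = 0.0857), so that 5 of the 6 genes of this list were higher and 0 lower, with a median of 2.21. Of 11 other interferon-stimulated genes tested in both groups, 1 was higher, a share near that of all genes, and 4 were lower, with a median of -0.29, and at equal depth 1 of 10 was higher and 1 lower. Ifi27l2a, a mitochondrial interferon-inducible gene, was at 77.5, 123, 171 and 143 CPM against 225, 251, 612 and 517 CPM, a fall of 1.68 on the log2 scale (SE 0.07, adjusted p = 2.15e-22). The gene called higher was Isg20, an exonuclease gene, at 0.49 ± 0.07, higher in 3 of 4 libraries.

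Myo10, the gene of a myosin of filopodia, was at 39.2, 50.3, 90.2 and 90.4 CPM against 7.75, 7.90, 19.8 and 17.0 CPM, a difference of 2.38 ± 0.09 (adjusted p = 1.29e-22). AA467197, the mouse counterpart of human C15ORF48, was at 233, 305, 478 and 425 CPM against 38.1, 46.6, 110 and 91.1 CPM, a difference of 2.35 ± 0.06 (adjusted p = 5.29e-29). Its product is related to Ndufa4, a subunit of respiratory complex IV, and can stand in its place. Ndufa4 was at 528, 490, 268 and 290 CPM against 644, 687, 510 and 529 CPM and was lower in all 4 libraries, by -0.66 ± 0.06 (adjusted p = 1.32e-11). Over all libraries the values of Ndufa4 overlapped. It had the largest change among 31 nuclear genes of the respiratory chain, of which 3 were lower and 0 higher, with a median of -0.02, and of 13 mitochondrially encoded genes 1 was lower and 0 higher, with a median of -0.07. The share lower was near that of all genes in both lists.

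**Figure D2:**
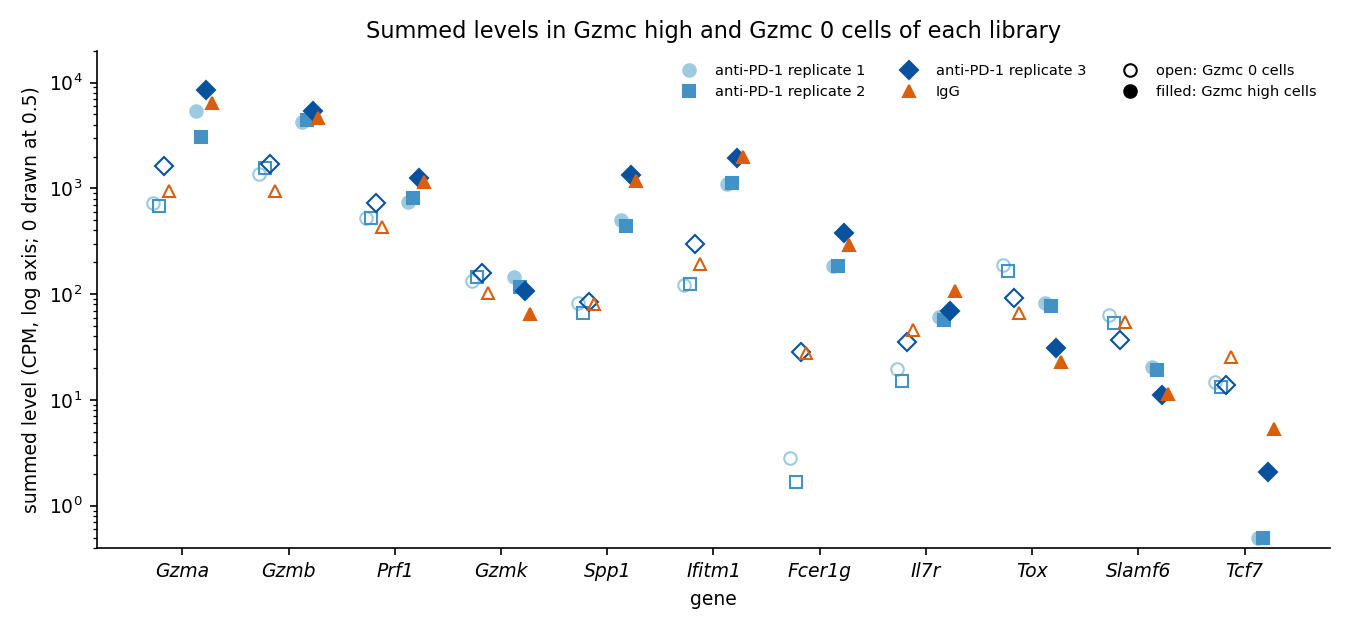
Level in CPM (y axis, log scale, 0 drawn at 0.5) of 11 genes (x axis) in the summed Gzmc high cells (filled) and Gzmc 0 cells (open) of each of the 4 libraries. Gzma, Gzmb, Prf1, Spp1, Ifitm1, Fcer1g and Il7r are higher in the filled points of every library, and Tox, Slamf6 and Tcf7 are lower.

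Genes of precursor and memory T cells were mostly lower. Of 7 genes tested in both groups, 4 fell and 1 rose, with a median of -1.01, and at equal depth 4 fell and 1 rose. Slamf6, a surface receptor of precursor exhausted cells, was at 20.6, 19.0, 11.1 and 11.4 CPM in Gzmc high cells and 63.5, 53.4, 36.9 and 54.0 CPM in Gzmc 0 cells, a difference of -1.80 ± 0.11 (adjusted p = 9.86e-16) without overlap. Klf2, a transcription factor of quiescence and tissue exit, was at 39.2, 11.4, 4.35 and 4.68 CPM against 54.5, 55.2, 25.4 and 18.6 CPM. It was lower in every library, by -1.75 ± 0.17 (adjusted p = 3.56e-10), although replicate 1 of the Gzmc high cells stood above 2 of the Gzmc 0 libraries, and 1 cell held 19.4% of its UMIs in Gzmc high cells. Id3, a regulator of long-lived T cells, was at 0.981, 0, 0.695 and 0.585 CPM against 1.77, 2.33, 4.82 and 10.6 CPM, and Klf3, a relative of Klf2, was at 0.981, 0, 0.521 and 0.878 CPM against 7.66, 8.13, 6.11 and 4.80 CPM. Both were below the limit in a Gzmc high library and are given without a test. Tcf7, the gene of the precursor factor TCF-1, was chosen for naming after its values had been seen, and was at 0, 0, 2.09 and 5.27 CPM against 14.8, 13.3, 13.7 and 25.6 CPM. The groups did not overlap, and Tcf7 is likewise given without a test. The gene that rose in this list was Il7r, the interleukin-7 receptor chain kept by long-lived cells, at 60.8, 56.9, 70.0 and 107 CPM against 19.6, 15.2, 35 and 45.6 CPM, a difference of 1.29 ± 0.09 (adjusted p = 7.25e-15). It was thus higher in every library, whereas 4 of the other 6 tested genes fell. Lef1, a factor related to TCF-1, was at 0.21 ± 0.10 (adjusted p = 0.190).

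Transcription factors of effector and exhausted cells were divided, with 5 of 20 higher and 9 lower and a median of -0.20, and at equal depth 4 of 19 higher and 6 lower. Tox, the regulator of the exhausted state, was at 83.4, 76.9, 31.1 and 22.8 CPM against 189, 166, 92.1 and 65.8 CPM. It fell in every library by a similar factor, a difference of -1.36 ± 0.08 (adjusted p = 7.26e-17), while the libraries differed in level as a whole. Its relative Tox2 was at 16.7, 14.2, 4.17 and 1.46 CPM against 30.2, 30, 19.6 and 12.6 CPM, a difference of -1.78 ± 0.19 (adjusted p = 2.56e-09). The largest rises of the list were Id2 at 0.50 ± 0.04, an inhibitor of E proteins in effector cells, and Bhlhe40 at 0.42 ± 0.06, the latter higher in 3 of 4 libraries.

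Inhibitory receptors did not move in 1 direction, with 4 of 12 higher, 5 lower and a median of -0.06. Cd244a, a receptor of the SLAM family, was at 23.5, 39.8, 68.3 and 61.2 CPM against 13.1, 12, 29.9 and 21.7 CPM, higher in each library, with a difference of 1.36 ± 0.08 (adjusted p = 4.80e-16). Klrg1, a receptor of terminal effector cells, was at 8.83, 16.1, 7.47 and 7.32 CPM against 3.25, 4.03, 5.62 and 4.45 CPM, a difference of 0.91 ± 0.22 (adjusted p = 0.00238, and 0.0822 at equal depth). Btla, a receptor for HVEM, fell by 1.68 on the log2 scale (SE 0.26) and Cd200r1, the receptor for CD200, by 0.45 (SE 0.12), the latter with an adjusted p of 0.652 at equal depth. Pdcd1, the gene of PD-1 itself, and Havcr2, the gene of TIM-3, were chosen after their values had been seen. Pdcd1 was at 253, 254, 261 and 245 CPM against 275, 273, 349 and 286 CPM, a difference of -0.23 ± 0.05 (adjusted p = 6.45e-04) that was -0.07 at equal depth (adjusted p = 0.582). Havcr2 was at 168, 161, 220 and 203 CPM against 139, 130, 202 and 158 CPM, a difference of 0.28 ± 0.05 (adjusted p = 6.22e-05) that was 0.58 at equal depth (adjusted p = 2.01e-06). At equal depth 4 genes of the list were higher and 0 lower.

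Cytokine genes were mostly lower or not called, with 2 of 12 tested in both groups higher and 5 lower and a median of -0.33, and at equal depth 0 of 8 higher and 2 lower. Tnfsf14, a ligand of the tumour necrosis factor family, fell by 1.80 (SE 0.21) on the log2 scale. Its relative Tnfsf8 was at 0, 0.949, 2.09 and 3.51 CPM against 4.94, 5.55, 5.56 and 14.3 CPM and is given without a test. The genes called higher were Csf2, the gene of the growth factor GM-CSF, at 2.60 ± 0.42 (adjusted p = 9.19e-06) and Csf1 at 0.94 ± 0.30, each higher in 3 of 4 libraries. Csf2 was at 5.89, 0, 1.74 and 30.7 CPM against 0.465, 0.604, 1.69 and 2.07 CPM, so that it was lower in the Gzmc high cells of replicate 2, nearly level in replicate 3 and highest in IgG. A single cell held 74.4% of its UMIs in Gzmc high cells, and with DESeq2 the adjusted p was 0.435 for Csf2 and 0.337 for Csf1. Of 5 chemokine genes, 4 were lower and 1 was higher, with a median of -0.38. Xcl1, which attracts cross-presenting dendritic cells, was at 876, 1843, 857 and 893 CPM against 2234, 2837, 1616 and 2173 CPM, a difference of -1.0 ± 0.06 (adjusted p = 1.37e-16). Ccl1 was the gene called higher, at 0.37 ± 0.05 and in 3 of 4 libraries.

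Among receptors for cytokines, 6 of 15 were higher and 3 lower, with a median of -0.04, and at equal depth 6 of 14 were higher and 1 lower. Besides Il7r these included Il12rb2, the inducible chain of the interleukin-12 receptor, at 21.6, 24.7, 27.6 and 26.0 CPM against 9.41, 7.61, 11.1 and 8.56 CPM, a difference of 1.47 ± 0.12 (adjusted p = 2.96e-12) without overlap. Csf2rb, a chain of the GM-CSF receptor, had a larger difference of 1.60 ± 0.45 (adjusted p = 0.0111, and 0.103 with DESeq2) but reached at most 3.13 CPM. Il18r1 and Il18rap, the chains of the interleukin-18 receptor, fell by 0.48 (SE 0.07) and 0.43 (SE 0.08), Il18rap with an adjusted p of 0.133 at equal depth. Of 9 costimulatory receptors 6 were lower and 2 higher, with a median of -0.29, from Crtam, a receptor of activated T cells, at -1.16 ± 0.09 and Cd226 (DNAM-1) at -0.75 ± 0.07 to Tnfrsf9 (4-1BB) at 0.23 ± 0.05 and Tnfrsf4 (OX40) at 0.20 ± 0.06. In replicate 2 both were lower, at 506 against 559 CPM for Tnfrsf9 and 106 against 131 CPM for Tnfrsf4, and DESeq2 gave adjusted p of 0.144 and 0.523. Of 15 integrin and residency genes 8 were lower and 4 higher, with a median of -0.22, and at equal depth 4 were lower and 5 higher, with a median of -0.10. Cxcr3, a receptor for interferon-induced chemokines, was at 23.5, 16.1, 20 and 12.6 CPM against 45.1, 46.6, 49.9 and 48.7 CPM, a difference of -1.43 ± 0.11 (adjusted p = 4.56e-13) without overlap, and Itgae (CD103) was at -0.83 ± 0.11, lower in 3 of 4 libraries (adjusted p at equal depth 0.279). Ccr2, the receptor for CCL2, was higher at 78.5, 75.9, 86.7 and 62.9 CPM against 32.1, 31.3, 45.7 and 34.3 CPM, a difference of 1.05 ± 0.08 (adjusted p = 7.73e-14) without overlap. Itga1, the collagen-binding CD49a chain, was higher by 0.79 ± 0.08.

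Of 10 receptors and adaptors of natural killer cells 3 were higher and 2 lower, with a median of 0.08. At equal depth 4 of 9 were higher and 1 lower. The 4 include Tyrobp and Fcer1g, which were low in the Gzmc 0 cells of the main comparison, at 0.620 to 2.66 and 1.66 to 28.2 CPM. Tyrobp and Fcer1g were followed by Klre1 at 0.78 ± 0.07, and Cd7 (-1.02 ± 0.07) and Hcst, the gene of the adaptor DAP10 (-0.24 ± 0.05), were lower, although Hcst was at 0.14 at equal depth (adjusted p = 0.161). The T cell identity list had 8 of 11 genes lower and 2 higher, with a median of -0.19, and at equal depth 3 lower and 2 higher. Trbc1, a constant gene of the receptor beta chain, was at -0.41 ± 0.04, Trbc2 at -0.39 ± 0.04, Thy1 at 0.22 ± 0.05, higher in 3 of 4 libraries, and Cd3g at 0.12 ± 0.04 (adjusted p of 0.0923 with DESeq2). Each of these differences was smaller than that of Gzmb.

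Beyond the lists, the genes with a mean log2 CPM of at least 4 and the largest falls were Pacsin1, a membrane-bending protein of endocytosis, and Timp2, an inhibitor of metalloproteinases. Pacsin1 was at 13.7, 13.3, 16.2 and 9.37 CPM against 52.1, 49.4, 53.3 and 60.5 CPM, a difference of -1.99 ± 0.12 (adjusted p = 2.77e-16). Timp2 was at 2.94, 4.74, 6.26 and 6.44 CPM against 23.0, 25.9, 19.5 and 25.6 CPM, a difference of -1.90 ± 0.16 (adjusted p = 5.75e-12). Neither gene overlapped between the groups. Cib2, a calcium-binding protein, Tbc1d4, a regulator of glucose transporter traffic, Izumo1r, the folate receptor 4 of regulatory and anergic T cells, and Gpm6b, a membrane proteolipid, were also among the 12 largest falls, at -1.75 ± 0.17, -1.61 ± 0.11, -1.56 ± 0.12 and -1.48 ± 0.13. All of them passed the threshold at equal depth as well.

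In the lists for hypoxia, glycolysis, protein folding and cholesterol synthesis the genes past the threshold were higher, while most genes of the last 3 were not called. Of 13 genes of the hypoxia response 9 were higher and 0 lower, with a median of 0.39, and at equal depth 6 of 12 were higher. Ndrg1, a stress-induced gene, was at 20.6, 19.9, 26.4 and 28.4 CPM against 7.42, 7.57, 11.1 and 12.2 CPM, a difference of 1.32 ± 0.12 (adjusted p = 2.64e-11) without overlap. P4ha2, a collagen prolyl hydroxylase, was at 2.32 ± 0.40 but reached at most 7.85 CPM and had 0 UMIs in the Gzmc high cells of replicate 2, and the lowest, Mxi1, a MYC antagonist, was at -0.10 ± 0.08 (adjusted p = 0.526). Of 17 glycolysis genes 7 were higher and 0 lower, with a median of 0.10. Slc2a3, the glucose transporter GLUT3, was at 79.5, 66.4, 125 and 122 CPM against 43.7, 37.6, 70.0 and 61.5 CPM, a difference of 0.92 ± 0.07 (adjusted p = 7.02e-14), and Hk2 (hexokinase 2) was at 0.43 ± 0.09 (adjusted p at equal depth 0.112). The lactate exporter Slc16a3 was lowest, at -0.16 ± 0.07 (adjusted p = 0.136). Of 17 genes of the unfolded protein response and of folding in the endoplasmic reticulum 8 were higher and 0 lower, with a median of 0.17, led by Creld2 at 0.39 ± 0.08 (adjusted p at equal depth 0.210) and Hsp90b1 at 0.34 ± 0.04. Of 21 genes of cholesterol synthesis 4 were higher and 0 lower, with a median of 0.06, among them Hmgcs1 at 0.43 ± 0.08 and in 3 of 4 libraries, and Dhcr7, the last enzyme of the pathway, was lowest, at -0.21 ± 0.15 (adjusted p = 0.477). At equal depth 3 glycolysis, 3 folding and 2 cholesterol genes were higher.

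Cell cycle genes had medians near that of all genes, and lower ones at equal depth. Of 20 genes of G1/S and replication 3 were higher and 1 lower, with a median of 0.06. Of 20 genes of mitosis 2 were higher and 1 lower, with a median of 0.04. Among all genes tested in both groups 6.12% were higher and 7.06% lower. At equal depth 0 of these genes were higher, while 9 replication genes and 15 mitosis genes were lower, with medians of -0.23 and -0.30. Top2a, a topoisomerase of dividing cells, was at 364, 319, 293 and 282 CPM against 287, 281, 262 and 284 CPM, a difference of 0.18 ± 0.05 (adjusted p = 0.00585) that turned to -0.20 at equal depth (adjusted p = 0.0356). Bub1, a kinase of the mitotic checkpoint, turned from 0.36 ± 0.09 to -0.13 (adjusted p = 0.597) and Cdc45, a replication factor, from 0.29 ± 0.10 to -0.21 (adjusted p = 0.420). For these 3 genes the sign thus differed between the comparisons. Others were lower in both, such as Mcm6, a subunit of the replicative helicase, at -0.28 ± 0.05 and -0.40 at equal depth (adjusted p of 1.07e-04 and 5.38e-05). Cdc20, an activator of mitotic exit, was at -0.29 ± 0.08 and -0.56 (adjusted p of 0.0129 and 5.28e-04, and 0.120 with DESeq2). Ung, a DNA repair glycosylase, and Cenpf, a kinetochore protein, were at -0.28 ± 0.10 and -0.08 ± 0.08 and were not called in the main comparison. They were called lower at equal depth, at -0.58 and -0.47, and with the class set after thinning, at -0.57 and -0.60. Both were also called lower in cells without Mki67 and Top2a UMIs.

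**Figure D3:**
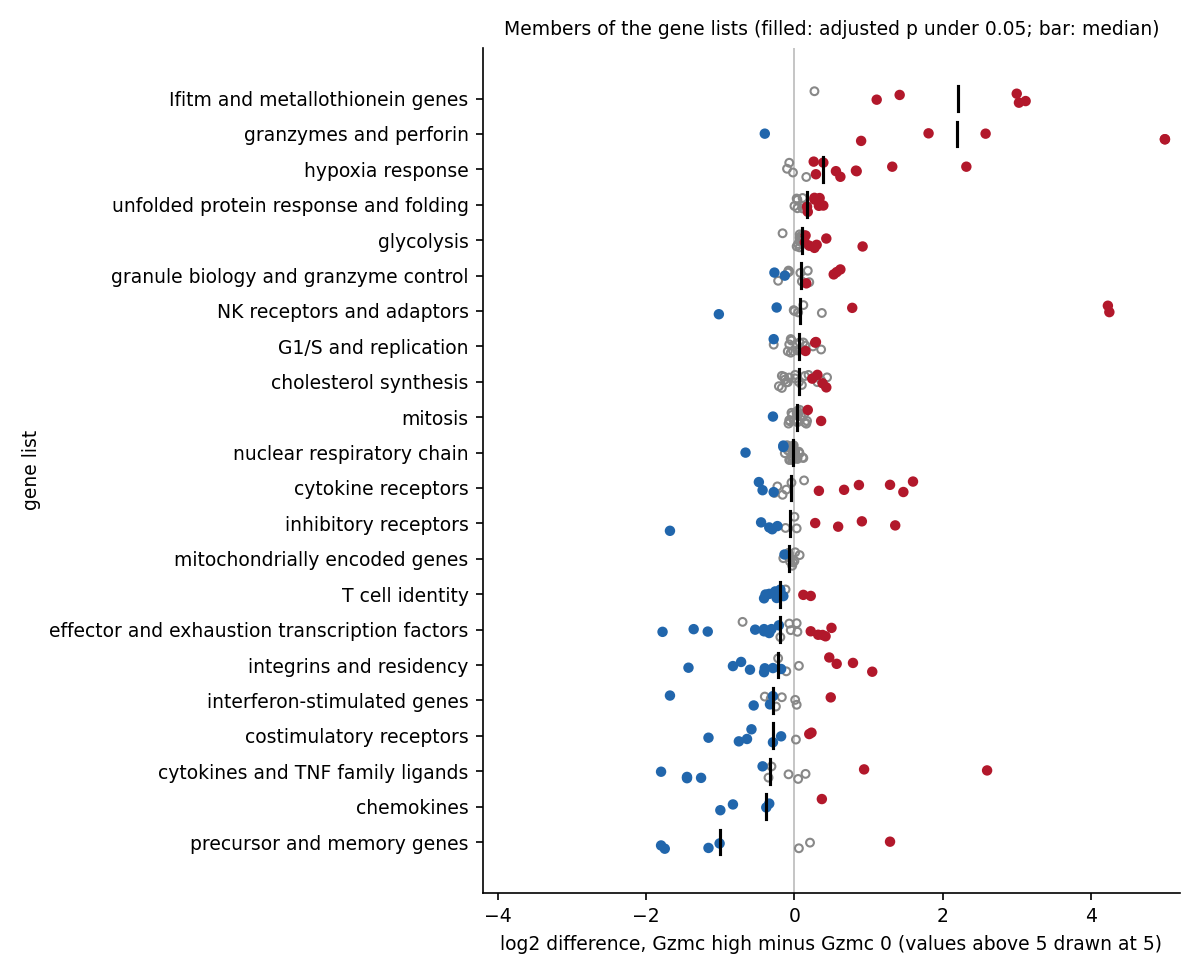
Log2 difference between Gzmc high and Gzmc 0 cells (x axis) of each tested member of 22 gene lists (rows), with values above 5 drawn at 5, genes past the adjusted p of 0.05 filled and the list median as a bar, without genes too low in 1 group for a test. The Ifitm and metallothionein genes and the granzymes have the highest medians, 2.21 and 2.20, and precursor and memory genes the lowest, -1.01.

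Of the lists of markers of other cells, that for gamma delta T cells had the highest summed level in Gzmc high cells, and the others reached at most 50.6 CPM. The summed level of the list for mast cells and basophils was higher, at 17.7 to 38.9 CPM against 2.26 to 8.20 CPM, through Mcpt8 and Kit, the receptor for stem cell factor (a difference of 2.07 ± 0.14 for Kit). The defining genes Mcpt4, Ms4a2, Fcer1a, Tpsb2 and Cma1 were at 0 in all 764 cells. The lists for tumour epithelium (6.64 to 11.1 against 12 to 36.5 CPM, 1 of 2 tested genes lower), macrophages (5.89 to 10.4 against 11.2 to 18.1 CPM, 0 of 4 called), B and plasma cells (32.0 to 40.8 against 56.1 to 223 CPM, 1 of 2 lower) and acinar cells (1.96 to 6.78 against 6.07 to 8.62 CPM, 1 of 1 lower) had no gene that was higher. Neutrophil and fibroblast genes were too low to test, at 0 to 1.96 and 0 to 0.348 CPM. In the list for dendritic cells (20.9 to 50.6 against 18.0 to 40.1 CPM) 1 of 3 tested genes was higher, H2-Ab1, an MHC class II chain, at 0.67 ± 0.11, with Flt3 and Siglech at 0. The endothelial list (6.64 to 16.1 against 6.33 to 9.19 CPM) had Pecam1, which T cells also express, at 0.84 ± 0.16 (adjusted p at equal depth 0.0762), with Cdh5, Kdr and Plvap at 0. For gamma delta T cells (99.1 to 121 against 111 to 159 CPM) Tcrg-C4 and Tcrg-C2 were higher, at 0.91 in 3 of 4 libraries and at 0.44 (adjusted p of 0.0846 with DESeq2, and a difference of 1.04 at equal depth), and Trdc was lower, at -0.47 (adjusted p at equal depth 0.725). The CD4 T cell list was at 0 to 1.76 against 0.221 to 1.57 CPM, with 0 of 1 gene called. Their part in the results was not tested beyond a fit without the cells that held 10 or more such UMIs, which called 1384 genes.

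The cluster granzymes were highest in the cells with the most Gzmc UMIs. Since the classes are cut by Gzmc, the values are a description. Gzmf was at 3.47 CPM in the IgG cells without Gzmc and at 56.6, 80.7, 169, 333, 1177 and 6579 CPM in those with 1, 2, 3 to 4, 5 to 9, 10 to 29 and 30 or more Gzmc UMIs. The order was not the same in every library, since Gzmf was at 4.75 CPM in the 8 cells of replicate 1 with 10 to 29 UMIs and at 0 in the 11 cells of replicate 2 with 3 to 4. As means over the 4 libraries, the 194 cells with 30 or more Gzmc UMIs were at 7024 ± 1037 CPM (SD, n = 4) for Gzmf, against 227 ± 239 CPM in the 182 cells with 3 to 4, and at 3625 ± 1396 CPM for Gzmd against 36.7 ± 42.1 CPM. Gzmb was at 1383 ± 319 CPM without Gzmc, 2198 ± 511 CPM with 1 UMI, 3362 ± 689 CPM with 2, 2881 ± 913 CPM with 3 to 4 and 7066 ± 1219 CPM with 30 or more. Ifitm1 was at 185 ± 83.6, 415 ± 190, 631 ± 377, 748 ± 578 and 3096 ± 179 CPM in the same 5 classes, and Tox at 128 ± 58.7, 94.0 ± 46.3, 68.9 ± 45.1, 87.8 ± 64.3 and 20.8 ± 13.6 CPM. For Gzmb and Tox the class with 2 UMIs thus lay farther from the Gzmc 0 cells than that with 3 to 4, by less than the spread between libraries. The spread between libraries was wide in the middle classes, where replicates 1 and 2 have 8 to 12 cells each. Pdcd1 was at 296 ± 36.0 CPM without Gzmc and 260 ± 36.5 CPM with 30 or more UMIs, and Mki67, a marker of cycling cells, at 206 ± 19.0 and 172 ± 35.2 CPM. These 2 genes differed between the ends by about as much as their libraries.

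**Figure D4:**
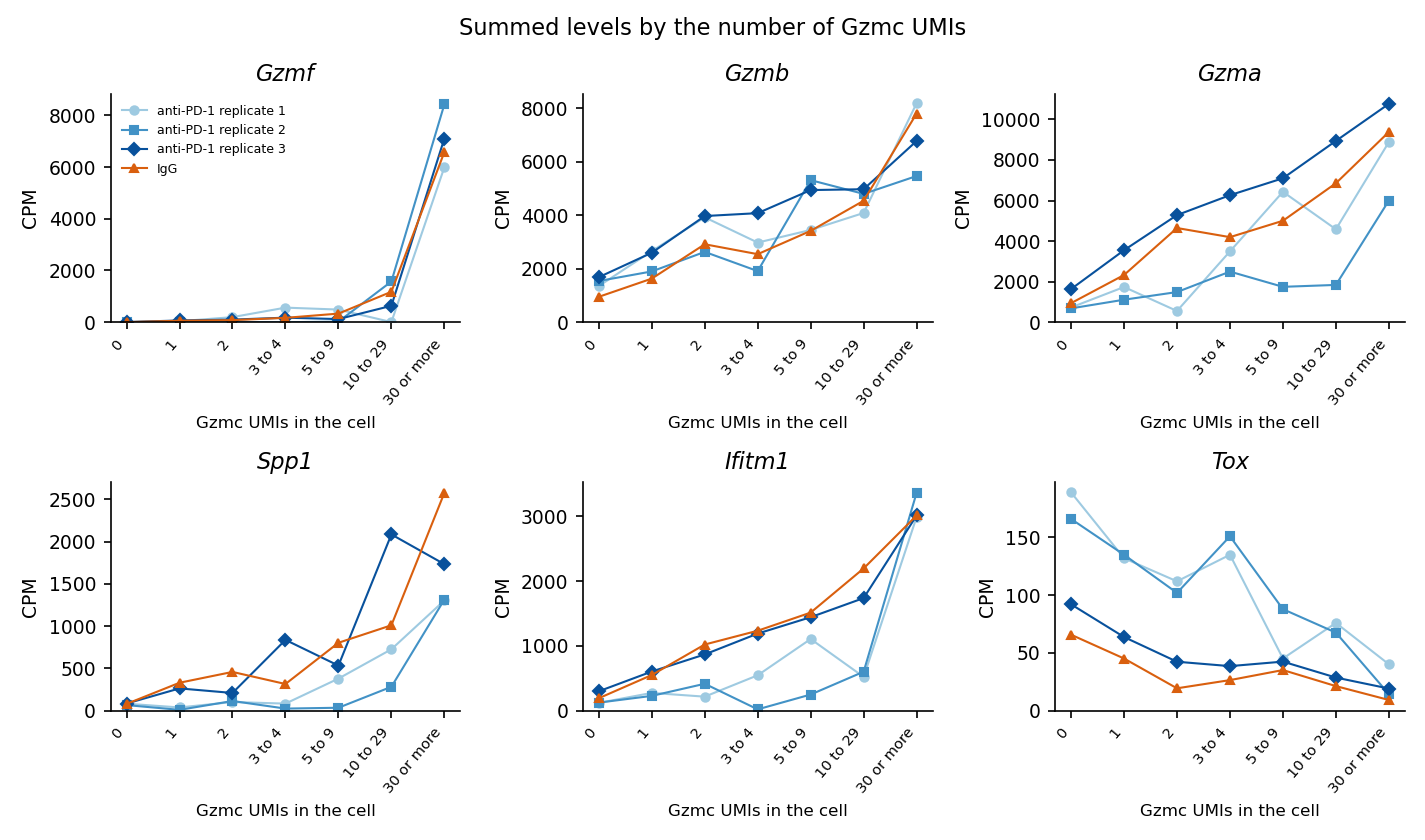
Level in CPM (y axes, linear) of Gzmf, Gzmb, Gzma, Spp1, Ifitm1 and Tox in cells summed by their number of Gzmc UMIs (x axes), 1 line for each of the 4 libraries. Gzmf is at most 1575 CPM up to 29 UMIs and at 5991 to 8422 CPM with 30 or more, Gzmb and Gzma have their highest means there, 7066 and 8757 CPM, and Tox is at 9.30 to 40.2 CPM in the last class.

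The share of Gzmc high cells was 1.45% in anti-PD-1 replicate 1 (exact 95% interval 1.02 to 1.99), 1.57% in replicate 2 (1.13 to 2.12), 4.70% in replicate 3 (4.2 to 5.24) and 3.26% in IgG (2.94 to 3.59). Replicates 1 and 2 could not be told apart by counting error, and replicate 3 stood above all others. The mean with anti-PD-1 was 2.57% ± 1.84 (SD, n = 3), 0.683 percentage points below IgG, with a two-sided exact permutation p of 1, and the smallest p that 3 libraries against 1 allow is 0.25. IgG lay within the range of the anti-PD-1 libraries. Replicate 3 alone was 1.45 points above IgG. Without replicate 1, 2 or 3 the difference of the anti-PD-1 mean from IgG was -0.122, -0.181 or -1.75 points. Since the rule counts raw UMIs and the IgG cells were shallower, each cell was also thinned to 3000 UMIs, and then 0.394%, 0.615%, 2.36% and 2.14% of cells had at least 3 Gzmc UMIs, which puts replicate 3 at 0.221 points above IgG with overlapping intervals of 2.0 to 2.76 and 1.87 to 2.43. The difference between the treatments was then -1.01 points (exact permutation p = 1). Intervals cover counting error only.

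**Figure D5:**
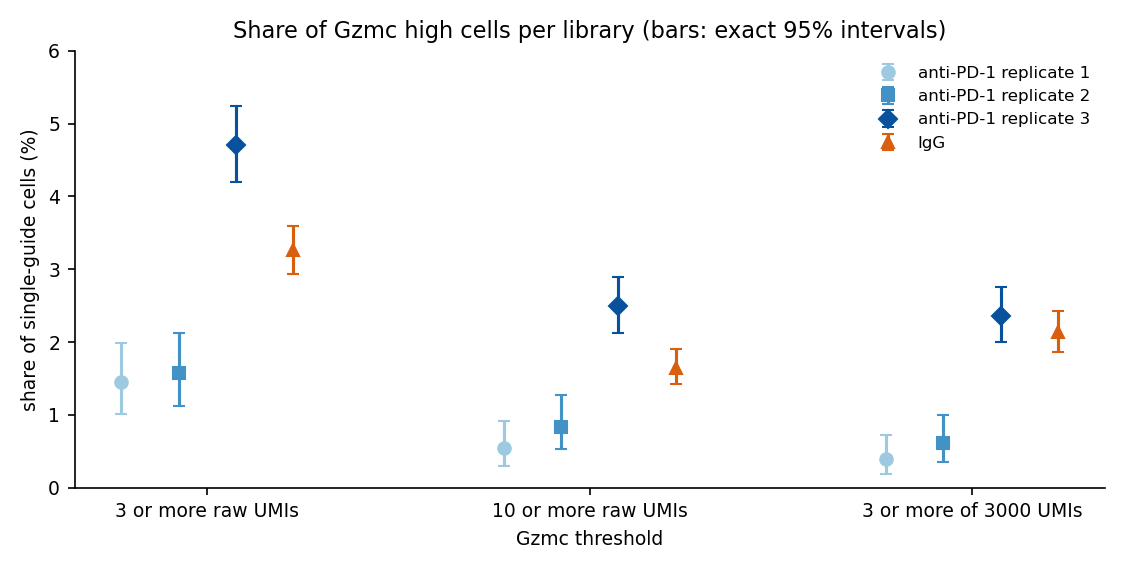
Share of single-guide cells that were Gzmc high (y axis, %) in the 4 libraries, with exact 95% intervals as bars, for thresholds of 3 and 10 raw UMIs and for 3 of 3000 thinned UMIs. With 3 raw UMIs replicate 3 at 4.70% stands above IgG at 3.26%, and after thinning both are near 2.36% and 2.14%, above replicates 1 and 2.

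Free RNA in the droplets was not measured, and Gzmc in cells unlikely to make granzyme C is an upper limit on it. Cells with UMIs of both Tcf7 and Slamf6, which mark precursor cells, had a Gzmc UMI in 2.16%, 1.86%, 6.95% and 4.82% of cases, against 5.77%, 6.21%, 12.4% and 8.80% of the other cells, at median depths of 16096, 13951, 11492 and 7671 against 16863, 16388, 11990 and 6249 UMIs. At least 3 UMIs were found in 0, 0, 4 and 7 of 231, 215, 302 and 622 such cells. The Gzmc high share in them was thus 0 to 1.32%, against 1.59% to 4.87% in the other cells.

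To ask whether anti-PD-1 changed the Gzmc high cells, their sums were compared between the 3 anti-PD-1 libraries and IgG. By edgeR, 0 of 9364 genes (0%) had an adjusted p under 0.05, with 118 at an unadjusted p under 0.05, and DESeq2 also called 0, with 46 unadjusted. Without replicate 3 edgeR called 498 genes, but then the anti-PD-1 libraries are replicates 1 and 2, whose separation from the other libraries cannot be told apart from treatment. With 1 IgG library, its spread was taken to equal that among the anti-PD-1 libraries.

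The difference between Gzmc high and Gzmc 0 cells was itself compared between treatments. IgG is 1 library, so its spread was taken to equal that among the anti-PD-1 libraries, and it is not stated whether replicates 1 and 2 came from separate mice. The edgeR interaction test called 17 of 11811 genes (0.144%), 8 with a larger and 9 with a smaller value in anti-PD-1, and 407 had an unadjusted p under 0.05. Gzmb had log2 differences of 1.64, 1.52 and 1.66 with anti-PD-1 and 2.27 with IgG, smaller by 0.68 ± 0.09 with anti-PD-1 (adjusted p = 2.78e-07). Its level in Gzmc high cells of IgG, 4597 CPM, was within the range of the other libraries, whereas the Gzmc 0 cells of IgG were lowest, at 951 CPM against 1353 to 1686 CPM. Prf1 had the same pattern, with 0.51, 0.63 and 0.78 against 1.40, a change of -0.77 ± 0.11 (adjusted p = 6.96e-07), and 430 CPM in the Gzmc 0 cells of IgG against 525 to 732 CPM. For both genes the value of replicate 3 alone was also below that of IgG.

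For the other genes named, replicate 3 often lay near IgG. Fcer1g had differences of 5.58, 6.14, 3.69 and 3.36, larger by 1.38 ± 0.24 with anti-PD-1 (adjusted p = 1.17e-04), with replicate 3 near IgG. Klra5, a receptor of the Ly49 family, had 2.28, 3.31, 1.80 and 1.31, a change of 1.04 ± 0.17 (adjusted p = 2.09e-05). Spp1 had 2.58, 2.72, 3.95 and 3.85, a change of -0.72 ± 0.16 (adjusted p = 0.0219). In Fcer1g and Spp1 replicate 3 was nearer to IgG than to replicates 1 and 2. Mt2 had 0.50, 1.41, 1.30 and 1.82, a change of -0.68 ± 0.16 (adjusted p = 0.0366), and S100a4, a calcium-binding protein, had 0.12, 0.08, 0.60 and 0.77, a change of -0.51 ± 0.12 (adjusted p = 0.0267). DESeq2 called 2 of the 17 genes, Gzmb and Prf1.

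The Gzmc high cells carried 246 of the 276 guides and all 83 targets found in single-guide cells, and 97 of them, 12.7%, carried a nontargeting guide (sgNT), against 11.6% of Gzmc 0 cells. Gzmc high cells were thus found without any metabolic gene being targeted, at 2.17%, 1.06%, 5.80% and 3.34% of the sgNT cells of the 4 libraries. To ask whether a knockout moved cells into this range, the log odds of being Gzmc high were compared with sgNT for 70 targets with at least 10 cells in each library. None passed an adjusted p of 0.05 by limma (0%), with 2 at an unadjusted p under 0.05. The smallest p belonged to Setd1b, a histone H3K4 methyltransferase, with 11 of 146 cells, at 5.56%, 7.14%, 8.89% and 7.25% of its cells in the 4 libraries, a log odds difference of 1.24 ± 0.40 (adjusted p = 0.158). Its share was above that of sgNT in 4 of 4 libraries. In replicates 1 and 2 this rests on 1 of 18 and 1 of 14 cells. Its 3 guides gave 2 of 44, 4 of 52 and 5 of 50 cells. The standard error of 0.40 was the same for all 70 targets and is not the spread of any 1 target. Cyb5r2, a cytochrome b5 reductase, followed with 15 of 220 cells and 1.03 ± 0.40 (adjusted p = 0.393), but 11 of the 15 cells carried the same guide, which reached 12.8% of its 86 cells. Rdh12, a retinol dehydrogenase, St3gal4, a sialyltransferase, and Gnpat, an enzyme of ether lipid synthesis, were at 0.79 ± 0.40, 0.78 ± 0.40 and -0.68 ± 0.40, the last with 2 of 270 cells, each with an adjusted p of 0.865.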

How the data were processed

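Single-cell RNA-seq of sorted OT-I T cells was read from 4 gene expression libraries and their guide calls. For each barcode, the authors deposited raw UMI counts of every gene, not normalised; their processing notes name Cell Ranger 3.1.0 and mm10. The deposited guide calls, also from Cell Ranger, list the guides of each barcode with their UMI counts. Total gene UMI counts were 147911528, 148163269, 155974184 and 142945121 in anti-PD-1 replicates 1 to 3 and IgG. Replicates were numbered by accession. Treatment came from the labels, and 0 columns of sample values remained unmapped.

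Barcodes with 1 guide and at most 10% mitochondrial UMIs were kept. Counts were summed over Gzmc high and Gzmc 0 cells of each library, without Gzmc, guides and vector, and tested with edgeR 4.0.16 by quasi-likelihood, with the library as a block because both sums of a library share a channel, filterByExpr, TMM and Benjamini-Hochberg adjustment at 0.05. The state by treatment interaction used the same 8 sums, and treatment within Gzmc high cells used 4. Targets were tested with limma 3.58.1 on log odds (0.5 added to each count), shares by exact permutation. Exact Clopper-Pearson intervals are given at 95%. Named genes were all granzymes and Spp1, the 12 largest rises and falls of the same sign in 4 libraries with a mean log2 CPM of at least 4, and the 2 highest and 2 lowest of each list, for interaction, by the same filters, up to 5 in each direction, and the 5 targets of smallest p. The members, the gene lists and the tests were chosen with earlier results of these data known. Cst7, Ctsd, Srgn, Klre1, Mki67, Tcf7, Pdcd1, Havcr2 and the neighbours of the cluster were named after their values were seen. The tests were checked on simulated data. Alternatives were other normalisations and filters, DESeq2 1.42.0, no block, stricter Gzmc thresholds, equal depth, thinning, sgNT cells, non-cycling cells and leaving out each library. R 4.3.3 and Python 3.11.15 were used, with scipy 1.17.1 for intervals and numpy 2.4.6, pandas 2.3.3 for tables and matplotlib 3.10.9 for plots. Promoters were matched by symbol in a RefSeq table.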

Additional observations from a re-analysis of the deposited data

Results flagged for a closer look

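The genes given here had a difference between Gzmc high and Gzmc 0 cells that itself differed between anti-PD-1 and IgG in the edgeR interaction test, with 1 IgG library. On the log2 scale, anti-PD-1 minus IgG, the change was 1.04 for Klra5, 1.38 for Fcer1g, -0.77 for Prf1, -0.72 for Spp1, -0.68 for Gzmb, -0.68 for Mt2 and -0.51 for S100a4. For Gzmb and Prf1 the Gzmc 0 cells of IgG were the lowest of the 4 libraries, and the Gzmc high cells were within the range of the anti-PD-1 libraries. For Fcer1g and Spp1 replicate 3 was nearer to IgG than to replicates 1 and 2. The part of the library in these differences was not tested.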

How the results depend on the processing

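Of 1536 genes that differed between Gzmc high and Gzmc 0 cells, the count was 913 with DESeq2, 246 without the replicate block (the pairing of both sums of a library), 944 at equal depth, 207 in sgNT cells, 747 in cells without Mki67 and Top2a UMIs, and 943 to 1550 with each library left out. The interaction count of 17 was 2 with DESeq2 and 14 to 17 with an anti-PD-1 library left out. The treatment count of 0 within Gzmc high cells was 19 without the filter on low counts and 0 to 498 with a library left out, and the target count of 0 was 1 on percentage points (adjusted p = 0.0352) and 0 with any library left out. The cause of these changes was not tested. Over the genes named for the states, 1611 gene values kept direction and call, 223 lost the call, 18 gained it and 30 reversed. Reversed were Gzmk (0.02), Ccl3 (0.02), Tnfrsf4 (-0.21), H2-Ab1 (-0.09), Cenpf (0.04) and Mt3 (-0.22) in sgNT cells, Lef1 (-0.10), Cdc20 (0.07), Cdc45 (-0.66), Mt3 (-0.53), Mxi1 (0.18) and Sdr39u1 (-0.28) in cells without Mki67 and Top2a UMIs, Hcst (0.14), Top2a (-0.20), Bub1 (-0.13), Cdc45 (-0.21), Mki67 (-0.20), Mt3 (-0.05), Sdr39u1 (-0.02) and Srgn (0.07) at equal depth, Top2a (-0.18), Cdc45 (-0.21), Mki67 (-0.21), Dhcr7 (0.03) and Mxi1 (0.02) with the class set after thinning, Mki67 with at least 5 (-0.08) or 10 (-0.06) Gzmc UMIs, Mki67 (-0.04) and Sdr39u1 (-0.11) without replicate 3, and Cenpf (0.11) without IgG. With a library left out, Mki67 ranged from -0.04 to 0.08, Sdr39u1 from -0.11 to 0.16 and Cenpf from -0.20 to 0.11. Genes of low level rest on few UMIs, and replicates 1 and 2 had only 37 and 41 Gzmc high cells.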
